A study of Mus musculus with 15 samples.

Results

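The 6 genes described here encode calcium-binding proteins that anatomists use to tell thalamic nuclei and cell classes apart: Calb1 (calbindin), Calb2 (calretinin), Pvalb (parvalbumin), Necab1, Necab2 and Necab3. They were taken by name from the 25080 genes that the libraries list. All 6 passed the filter on low values (1 TPM or more in 3 or more libraries), which 13471 genes passed in all. RNA came from the dissected whole thalamus of male C57Bl/6 mice of 2 to 4 months. Control mice with an intact Maged1 (WT in the sample titles, floxed littermates in the study's methods) were compared with hemizygous Maged1-cKO mice. In the latter, Cre under the Vglut2 promoter deletes floxed Maged1 in the glutamatergic neurons that express Vglut2. Other cells, among them GABAergic neurons, glia and glutamatergic neurons without Vglut2, keep the gene. All mice received saline on 3 days, then either intraperitoneal cocaine at 20 mg/kg or saline on 5 days. The 14 libraries comprised 4 control saline, 4 control cocaine, 4 Maged1-cKO saline and 2 Maged1-cKO cocaine libraries. The series holds 15 samples, and the third sample of the Maged1-cKO cocaine group was not analysed here.

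All of these proteins bind calcium through EF-hand motifs. Calbindin, calretinin and parvalbumin are soluble proteins of the cytoplasm that take up calcium when it enters a neuron and so shape the calcium signal. In the rodent thalamus, calretinin is known from midline nuclei such as the paraventricular nucleus, calbindin from the widely projecting "matrix" neurons, and parvalbumin from the GABAergic reticular nucleus that surrounds the relay nuclei. The Necab proteins carry EF-hands near their N-terminus and a monooxygenase-like domain near the C-terminus. Necab1 marks subsets of neurons, Necab2 is known as a binding partner of adenosine receptors and as a habenula-rich protein, and Necab3 as a partner of an amyloid precursor adaptor protein.

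Values are TPM, transcript abundance corrected for length and library total, divided by a trimmed-mean (TMM) factor for each library. TPM is corrected for length, so levels of different genes may be set side by side. The factors lay between 0.807 and 0.9466 in cocaine libraries and between 1.072 and 1.209 in saline libraries. Without them the median of all tested genes was shifted by -0.34 (control) and -0.35 (Maged1-cKO) on the log2 scale after cocaine. TPM keeps no sequencing depth, so the depth and its counting error are unknown. The limma p-values weigh a difference between groups against a spread between libraries that all 4 groups share. The group of 2 libraries thus relies on the spread of the other groups. In whole tissue, fewer cells of a type and less RNA per cell cannot be told apart.

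Maged1 itself was measured first. It had 150 to 166 scaled TPM in control saline and 64.5 to 78.0 in Maged1-cKO saline libraries, but after cocaine 58.5 to 87.9 under the control label, and 152 and 174 under the Maged1-cKO label. The library labels and Maged1 therefore go in opposite directions after cocaine (log2 fold change of cKO against control 1.15, standard error 0.13, adjusted p = 0.00431, limma), while after saline they do not (-1.10, standard error 0.10, adjusted p = 0.00142). The cocaine libraries are called by their labels throughout, and each direction below that uses them rests on those labels. For 4 saline libraries the tag and the title give different genotypes, and the titles were followed. These were replicates 3 and 4 of control and replicates 1 and 2 of Maged1-cKO. Their Maged1 went with the titles, at 150 and 151 scaled TPM in those titled control, and 78.0 and 76.6 in those titled Maged1-cKO. Grouped by tag, each saline genotype holds libraries of high and of low Maged1. A few libraries also stood apart in markers of neighbouring tissue. The library labelled control cocaine replicate 1 had a summed habenula list of 179 scaled TPM against 8.83 to 59.1 in the rest of its group, and control saline replicate 1 had 1406 TPM of Ttr, the choroid plexus transthyretin gene.

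The 6 genes lie on 4 chromosomes of GRCm38 (GENCODE M21 annotation). Calb1 lies on chromosome 4 from 15881264 to 15908064 on the plus strand, with 11 exons and 261 codons in its longest coding transcript. Necab1 is 0.731 Mb away on the same chromosome, from 14952245 to 15149794 on the minus strand, with 13 exons and 352 codons. Calb2 lies on chromosome 8 from 110137502 to 110168210 on the minus strand, with 11 exons and 271 codons. Necab2 is on the same chromosome, 9.279 Mb from Calb2, from 119446719 to 119472640 on the plus strand, with 13 exons and 389 codons. Pvalb, with the fewest exons and codons, lies on chromosome 15 from 78191114 to 78206400 on the minus strand, with 4 exons and 110 codons. Necab3 lies on chromosome 2 from 154544399 to 154558890 on the minus strand, with 13 exons and 353 codons.

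Calretinin mRNA was the most abundant of the 6. Over the 14 libraries, mean levels were 97.6 scaled TPM for Calb2, 47.8 for Necab2, 39.8 for Necab1, 37.5 for Calb1, 33.5 for Pvalb and 15.9 for Necab3. Calb2 stood at the 97.3 percentile of the means of all tested genes and Necab3 at the 74.8 percentile. Calb2 was the highest of the 6 in 13 of 14 libraries, the exception being Maged1-cKO saline replicate 1, where Pvalb was higher. Necab3 was the lowest in 12 libraries and Pvalb in the other two. The order of the 4 genes between them was not fixed: their means differed by less than their ranges over libraries, and Necab2 exceeded Necab1 in 10 of 14 libraries. From its lowest to its highest library Calb1 varied 1.60-fold, Necab1 1.67-fold, Necab3 2.39-fold, Calb2 3.01-fold, Necab2 3.29-fold and Pvalb 10.2-fold.

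**Figure D1:**
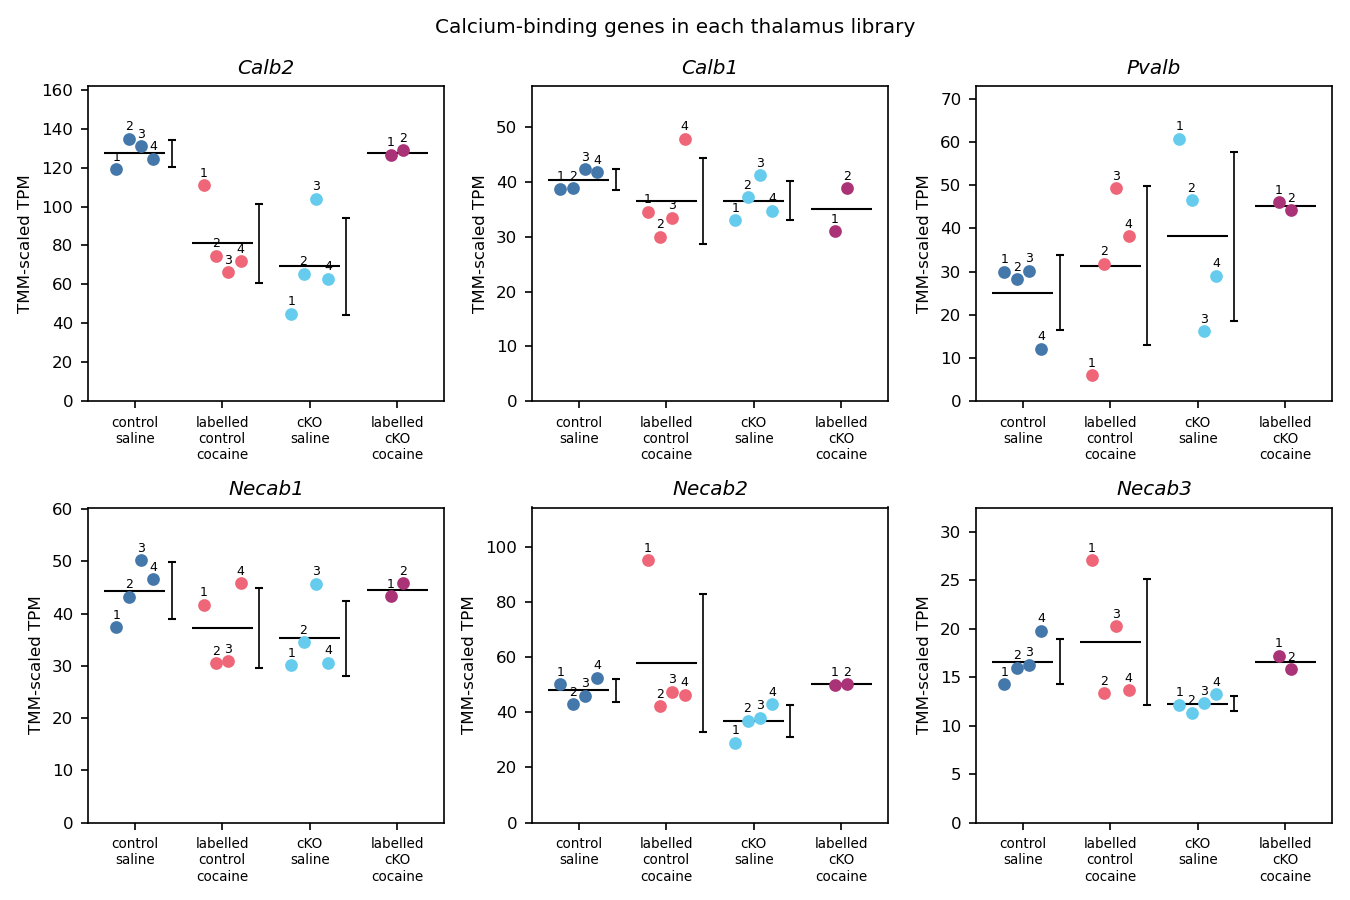
Each panel plots 1 gene in scaled TPM (vertical axis, from 0) for the 14 libraries, with the replicate number beside each point, the horizontal line at the group mean and the bar beside it giving the SD of groups of 4. Calb2 lies between 119 and 135 in control saline and between 44.9 and 111 in Maged1-cKO saline and under the control cocaine label, while Pvalb varies most within groups.

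Calb2 showed the clearest pattern between groups. The control saline libraries had 119, 135, 131 and 125 scaled TPM (replicates 1 to 4), and those labelled control cocaine had 111, 74.8, 66.3 and 72.0. All 4 libraries labelled control cocaine lay below all 4 control saline libraries, with replicate 1 nearest to them. The Maged1-cKO saline libraries had 44.9, 65.4, 104 and 63.0, and those labelled Maged1-cKO cocaine had 127 and 129. Both libraries labelled Maged1-cKO cocaine lay above all 4 Maged1-cKO saline libraries, within the range of control saline. The group means were 127 ± 6.99, 81.0 ± 20.3, 69.3 ± 24.8 and 128 ± 1.60 (SD, n = 4, 4, 4 and 2). Control saline and labelled Maged1-cKO cocaine, with the higher Calb2, were also the groups with the higher Maged1. Between saline and cocaine groups of like Maged1, mean Calb2 was thus 127 and 128 where Maged1 was high, and 69.3 and 81.0 where it was low. In both pairs the libraries overlapped. Cocaine effects with the groups paired in this way were not fitted, and those below follow the labels.

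After cocaine, Calb2 fell in the libraries labelled control and rose in those labelled Maged1-cKO. The log2 fold change was -0.68 in control (standard error 0.21, 95% interval -1.13 to -0.23, adjusted p = 0.0310 over all tested genes, limma). In Maged1-cKO it was 0.94 (standard error 0.25, interval 0.39 to 1.49, adjusted p = 0.0209, limma). A gene was called at an adjusted p-value under 0.05 with a log2 change of at least 0.5, and 3.1% of all tested genes were called in control (1.56% lower) and 3.07% in Maged1-cKO (1.83% higher). Exact permutation tests gave p = 0.0286 for 4 libraries against 4 and p = 0.133 for 2 against 4, the smallest two-sided values that such groups allow. The groups did not overlap in either comparison, as was also true of 10.3% of all tested genes (lower in control) and 21.1% (higher in Maged1-cKO).

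The cocaine effect on Calb2 differed between the labelled genotypes by 1.62 on the log2 scale (standard error 0.33, interval 0.91 to 2.33, adjusted p = 0.0398, limma), a contrast in which 0.854% of all tested genes were called (0.468% higher). Averaged over both genotypes, a contrast that leaves out which genotype a cocaine library is labelled, the effect was 0.13 (standard error 0.16, interval -0.22 to 0.48, adjusted p = 0.576), with 2.07% of genes called. Between genotypes after saline, Calb2 was lower in all 4 Maged1-cKO libraries (-0.94, standard error 0.21, interval -1.38 to -0.49), and the exact permutation test gave p = 0.0286. The limma test missed the threshold, with an adjusted p = 0.0801 (0.000583 unadjusted), in a contrast where 0.0445% of all tested genes were called and 5.8% had Maged1-cKO libraries all below the controls. After cocaine the difference was 0.68 (standard error 0.25, interval 0.14 to 1.23, adjusted p = 0.326), with 0.0371% of genes called, although both libraries labelled Maged1-cKO lay above the others, as in 7.03% of all tested genes.

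The calls on Calb2 depended on single libraries and on which label gave the genotype. The fall in control was no longer called without control cocaine replicate 2, 3 or 4 or control saline replicate 2, 3 or 4 (adjusted p = 0.0579 to 0.0809, limma). The rise in Maged1-cKO was lost without either cocaine library (adjusted p = 0.0846 and 0.128). Of the 14 fits with a library left out, the difference between genotypes was called in 2, those without control cocaine replicate 1 (1.78, adjusted p = 0.0198) or Maged1-cKO saline replicate 3 (1.84, adjusted p = 0.00793). Without Maged1-cKO saline replicate 3, which had the highest Calb2 of its group, Calb2 was also called lower in Maged1-cKO after saline (-1.15, adjusted p = 0.0173, limma). With the genotype taken from the tags the changes were -0.06 in control and 0.33 in Maged1-cKO (adjusted p = 0.917 and 0.639), and in the 10 libraries whose labels agree they were -0.67 and 0.66 (adjusted p = 0.107 and 0.173). Between genotypes after saline, the tags turned the difference in Calb2 from -0.94 to 0.29. Maged1 went with the titles of the saline libraries concerned, so each saline group by tag mixes libraries of high and of low Maged1.

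Ratios within a library do not depend on the scaling between libraries, but those below reuse the same Calb2 values. With the genotype from the titles, Calb2 over Calb1 and over Necab1 separated the saline genotypes. Calb2 over Calb1 was 2.98 to 3.47 in control saline and 1.36 to 2.52 in Maged1-cKO saline, with no overlap. With the genotype from the tags, the saline libraries overlapped, at 1.36 to 3.47 in control and 1.81 to 3.09 in Maged1-cKO. Calb2 over Calb1 was 1.50 to 3.21 in the libraries labelled control cocaine, whose highest value overlapped control saline, and 3.31 and 4.07 in those labelled Maged1-cKO cocaine. Calb2 over Necab1 was 2.61 to 3.19, 1.57 to 2.66, 1.49 to 2.28, and 2.81 and 2.92 in the same order of control saline, labelled control cocaine, Maged1-cKO saline and labelled Maged1-cKO cocaine. Calb2 over Pvalb, the balance of a midline marker and a reticular marker, was 3.98 to 10.2, 1.35 to 18.6, 0.739 to 6.43, and 2.75 and 2.91. That ratio overlapped in each of the 4 comparisons between groups, while Calb2 over Necab1, like Calb2 over Calb1, did not overlap between the saline genotypes as titled.

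**Figure D2:**
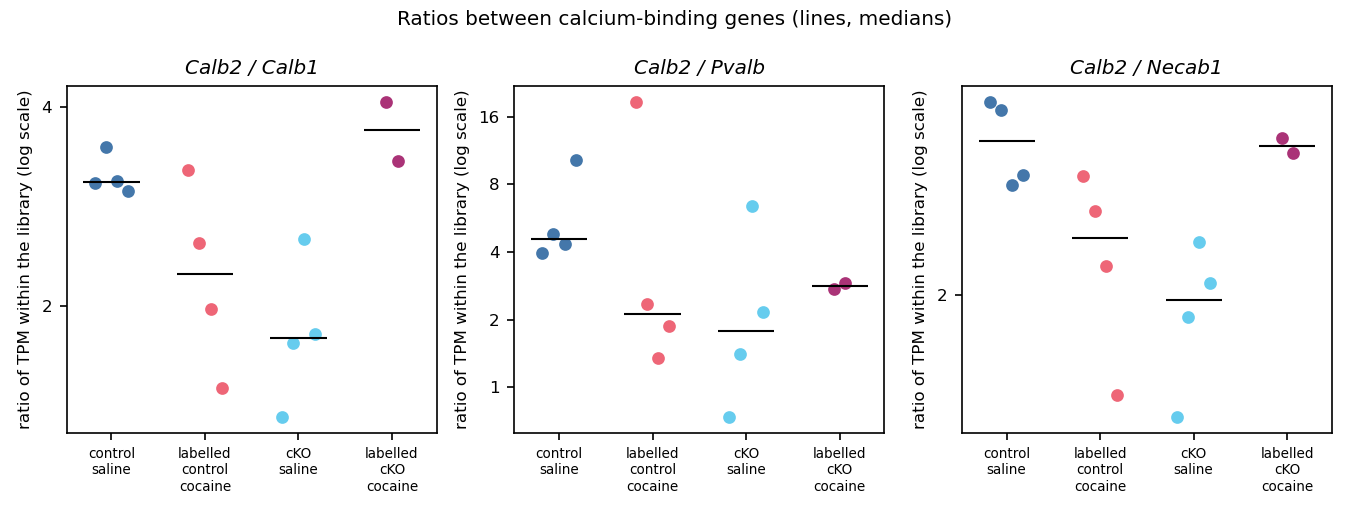
Ratios of Calb2 to Calb1, Pvalb and Necab1 from the deposited TPM of each library, on a log axis, with 1 point per library and a line at the group median. The medians of Calb2 over Calb1 are 3.08, 2.23, 1.78 and 3.69 from left to right, and the control saline and Maged1-cKO saline libraries do not overlap.

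Calb1, the calbindin gene, was the most even of the 6. It had 38.8, 38.8, 42.4 and 41.8 scaled TPM in control saline and 34.6, 30.1, 33.5 and 48.0 in the libraries labelled control cocaine. It had 33.1, 37.3, 41.2 and 34.8 in Maged1-cKO saline and 31.1 and 38.9 in the libraries labelled Maged1-cKO cocaine. The groups overlapped in every comparison. The log2 differences were -0.17 (standard error 0.12) after cocaine in control, -0.07 (0.15) in Maged1-cKO, -0.15 (0.12) between genotypes after saline and -0.05 (0.15) after cocaine, and their 95% intervals lay between -0.43 and 0.28. With TPM as deposited, that is without scaling, Calb1 passed as lower after cocaine in control (-0.54, adjusted p = 0.00214, limma), on a scale where the median gene was itself lower.

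Pvalb had the widest spread between libraries of one group. Control saline libraries had 29.96, 28.2, 30.2 and 12.2 scaled TPM, and those labelled control cocaine had 5.96, 31.8, 49.2 and 38.3. Maged1-cKO saline libraries had 60.8, 46.6, 16.2 and 29.1, and those labelled Maged1-cKO cocaine had 46.0 and 44.2. The lowest library of each group of 4 was control saline replicate 4, labelled control cocaine replicate 1 and Maged1-cKO saline replicate 3. No comparison of Pvalb was called, and the intervals were wide. For cocaine in control the log2 difference was 0.06 (standard error 0.58, interval -1.19 to 1.31), and for labelled Maged1-cKO against control after cocaine 0.86 (standard error 0.71, interval -0.67 to 2.39). The first of these intervals includes changes of 1 log2 unit in both directions. Without labelled control cocaine replicate 1 the effect of cocaine in control was 0.72 (adjusted p = 0.215, limma).

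Necab1 differed with the same sign as Calb2 in each contrast, but no difference was called. It had 37.4, 43.2, 50.2 and 46.6 scaled TPM in control saline and 41.7, 30.5, 30.9 and 45.8 in labelled control cocaine. It had 30.1, 34.5, 45.7 and 30.6 in Maged1-cKO saline, and 43.4 and 45.8 in labelled Maged1-cKO cocaine. The groups overlapped in every comparison. The log2 differences were -0.26 (standard error 0.15, adjusted p = 0.232, limma) for cocaine in control and 0.36 (0.19, adjusted p = 0.205) in Maged1-cKO. Their difference was 0.62 (standard error 0.24, interval 0.09 to 1.14, adjusted p = 0.193, limma; 0.0242 unadjusted). Between genotypes after saline the difference was -0.34 (standard error 0.15, interval -0.67 to -0.01, adjusted p = 0.284).

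Necab2, the habenula-rich member, had 50.2, 42.8, 46.0 and 52.5 scaled TPM in control saline and 95.1, 42.1, 47.5 and 46.4 in the libraries labelled control cocaine. It had 28.9, 36.9, 38.1 and 42.8 in Maged1-cKO saline, and 50.0 and 50.2 in those labelled Maged1-cKO cocaine. Replicate 1 of labelled control cocaine alone lay above the range of all other libraries, and it was the library with the highest habenula sum. The part of that tissue in the value was not tested. The log2 difference for cocaine in control was 0.19 (standard error 0.21, adjusted p = 0.535, limma) and turned to -0.08 without that library. In Maged1-cKO it was 0.46 (standard error 0.25, interval -0.09 to 1.01, adjusted p = 0.227), with both cocaine libraries above all 4 saline libraries, as in 21.1% of all tested genes. Over both genotypes it was 0.32 (standard error 0.16, interval -0.03 to 0.68, adjusted p = 0.150).

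Necab3 was the least abundant. It had 14.3, 15.99, 16.3 and 19.8 scaled TPM in control saline and 27.1, 13.3, 20.3 and 13.7 in labelled control cocaine. It had 12.2, 11.3, 12.3 and 13.2 in Maged1-cKO saline, and 17.2 and 15.8 in labelled Maged1-cKO cocaine. All 4 Maged1-cKO saline libraries lay below all 4 control saline libraries, as in 5.8% of all tested genes, and below both libraries labelled Maged1-cKO cocaine. The difference between genotypes after saline was -0.41 (standard error 0.18, interval -0.80 to -0.02), with adjusted p = 0.270 (0.0400 unadjusted, limma), and the exact permutation test gave p = 0.0286. For cocaine the differences were 0.11 (standard error 0.18) in control, turning to -0.09 without labelled control cocaine replicate 1, and 0.42 (0.22, adjusted p = 0.210) in Maged1-cKO.

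Taking the 6 genes as a group, 1 was called for cocaine in control, 1 for cocaine in Maged1-cKO and 1 in the difference between them, in each case Calb2. Of all tested genes 3.1%, 3.07% and 0.854% were called in these contrasts. None was called by limma between genotypes or for cocaine over both genotypes. Over both genotypes 0 of the 6 had an unadjusted p under 0.05, beside 42.7% of all tested genes. For cocaine in control, cocaine in Maged1-cKO and their difference 1, 1 and 2 had such a p, beside 36.9%, 33.7% and 18.5% of all tested genes. At an unadjusted p under 0.05 there were 3 between genotypes after saline (Calb2, Necab1 and Necab3), beside 16.7% of all tested genes, and 1 after cocaine (Calb2), beside 12.1%. The median log2 difference of the 6 genes was -0.05 for cocaine in control, 0.41 for cocaine in Maged1-cKO, -0.36 between genotypes after saline and 0.12 after cocaine, beside medians between -0.01 and 0.01 over all tested genes. In the saline comparison 5 of 6 had lower values in Maged1-cKO, Pvalb being the exception, and with the genotype from the tags the sign of all 6 turned (0.11 to 0.29 for the 5 and -0.93 for Pvalb). After cocaine in Maged1-cKO 5 of 6 had higher values, Calb1 being the exception. These comparisons share groups, so their values are given side by side and are not independent.

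**Figure D3:**
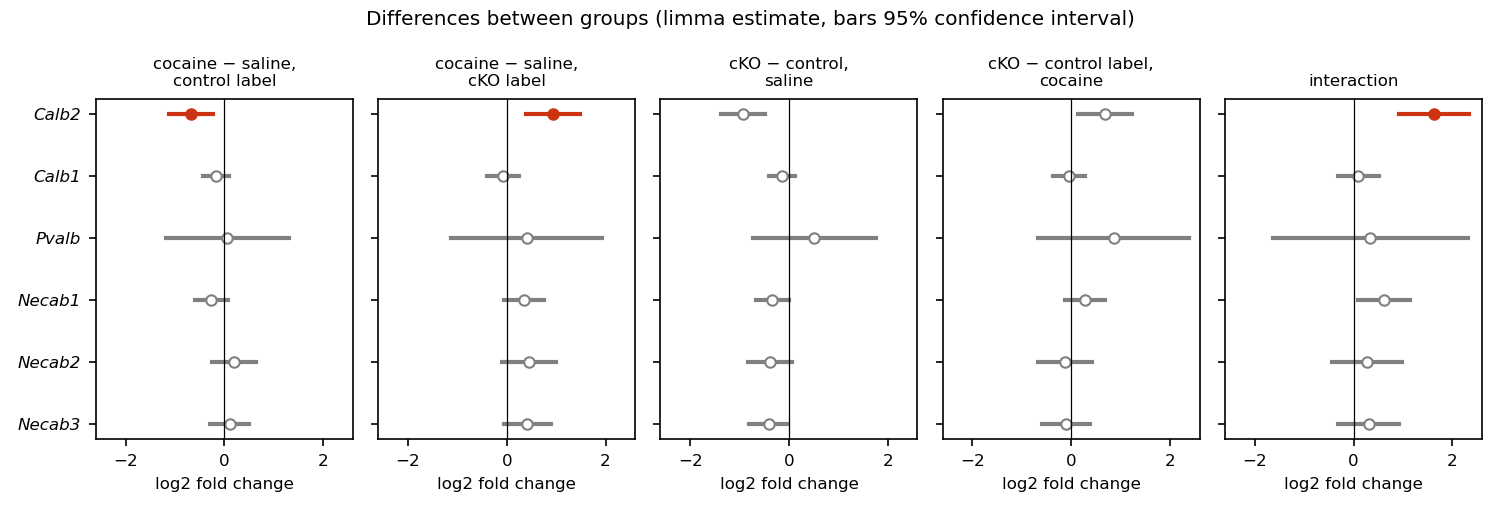
Log2 differences between groups (horizontal axis) for the 6 genes in 5 contrasts, with 95% confidence intervals from limma. Filled points mark calls: Calb2 at -0.68, 0.94 and 1.62, while the intervals of Pvalb span more than 2 log2 units in each panel.

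Within a group, all 6 genes varied more between libraries than most genes did. The SD of log2 values within groups was 0.92 for Pvalb, 0.33 for Necab2 and Calb2, 0.29 for Necab3, 0.24 for Necab1 and 0.19 for Calb1, beside a median of 0.11 over all tested genes. Pvalb stood at the 98.4 percentile of all tested genes and at the 99.4 percentile of genes of like level, and Calb1 at the 82.1 and 94.8 percentiles. Deviations from the group means were compared for the 15 pairs of these genes, and 1 pair passed the threshold after Benjamini-Hochberg adjustment over the pairs. Calb1 and Necab1, both on chromosome 4, varied together over the 14 libraries (Pearson r = 0.78, Spearman rho = 0.89). The exact permutation of libraries within groups gave p = 3.62e-05 for each, the smallest value it can give, and 0.000543 after adjustment over the 15 pairs. Without the 2 libraries farthest from the median of Calb1, r was 0.65.

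Calb2 and Pvalb varied in opposite directions within groups (r = -0.80, rho = -0.74, and r = -0.83 without the farthest 2 libraries), with exact permutation p = 0.0106 for r and 0.0353 for rho, and adjusted values of 0.0798 and 0.158. Pvalb and Necab2 did so as well (r = -0.85, rho = -0.79, adjusted p = 0.0859 and 0.119 by exact permutation, r = -0.70 without the farthest 2). Necab2 and Necab3 varied together (r = 0.77, rho = 0.53, adjusted p = 0.0859 and 0.270 by exact permutation), but r was 0.32 without the farthest 2 libraries, so that relation rested on those. The library labelled control cocaine replicate 1 held the lowest Pvalb and the highest Calb2, Necab2 and Necab3 of its group. Maged1-cKO saline replicate 3 held the lowest Pvalb and the highest Calb1, Calb2 and Necab1 of its group.

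**Figure D4:**
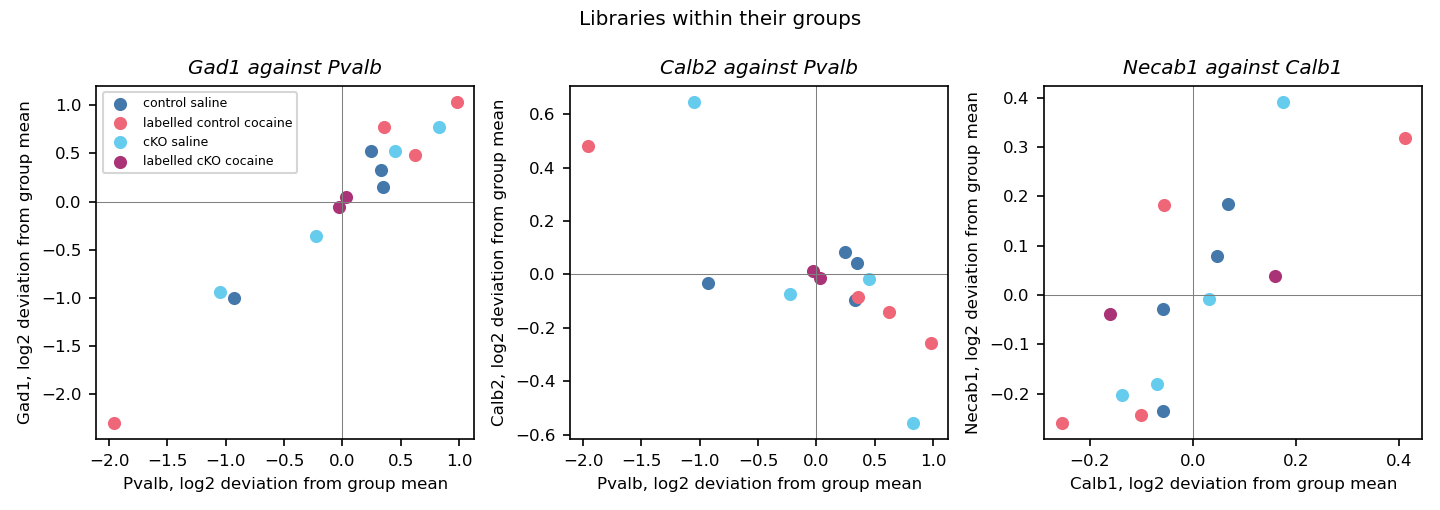
Each point is a library, placed by its log2 deviation from its group mean for a pair of genes, with colours for the 4 labelled groups. Gad1 rises with Pvalb (r = 0.98), Calb2 runs against Pvalb (r = -0.80) and Necab1 rises with Calb1 (r = 0.78).

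For each gene, the genes whose deviations from the group means were most like its own were found among all other tested genes, over the 14 libraries. They were Gad1 (r = 0.98, rho = 0.91) and Six3 (r = 0.97, rho = 0.94) for Pvalb. Gad1 encodes the GABA-synthesizing enzyme, and Six3 a transcription factor of reticular nucleus neurons. For Necab1 they were Gbx2 (r = 0.95, rho = 0.98) and Foxp2 (r = 0.95, rho = 0.96), transcription factors of developing and adult thalamic neurons. Calb2 was most like Radil (r = 0.93, rho = 0.93) and Syt10 (r = 0.90, rho = 0.77), a synaptotagmin. Calb1 was most like Ap2a2 (r = 0.96, rho = 0.93), a subunit of a clathrin adaptor, and Pkp2 (r = 0.96, rho = 0.89), a plakophilin. Necab2 was most like Wls (r = 0.95, rho = 0.94), the Wnt carrier, and Enox2 (r = 0.95, rho = 0.89), and Necab3 most like Map3k6 (r = 0.93, rho = 0.82) and Eif4ebp3 (r = 0.92, rho = 0.83). The likeness is a description and shares the libraries and their dissection.

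Gad1 was 40.3, 46.5, 35.7 and 15.8 scaled TPM in control saline and 4.67, 43.1, 51.5 and 35.1 in labelled control cocaine. It was 82.5, 69.4, 24.9 and 37.5 in Maged1-cKO saline, and 43.5 and 40.5 in labelled Maged1-cKO cocaine. The lowest Gad1 of each group of 4 came from the library with the lowest Pvalb. The list of 8 reticular and other GABAergic genes, in which Sst was the most abundant at a mean of 63.5 TPM, summed to 90.0 to 194 in control saline, 38.9 to 221 in labelled control cocaine, 88.5 to 281 in Maged1-cKO saline, and 200 and 215 in labelled Maged1-cKO cocaine. Its lowest library in each group of 4 was again that of lowest Pvalb, and its highest that of highest Pvalb in the labelled control cocaine and Maged1-cKO saline groups. None of its 8 genes was called in any contrast by limma, and at most 1 in a contrast had an unadjusted p under 0.05, beside 12.1% to 42.7% of all tested genes.

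Midline and paraventricular genes were read beside Calb2. Of 8 listed, 7 were tested, and C1ql3, a secreted synaptic protein gene, was the most abundant at a mean of 13.4 TPM. Gal, the galanin gene, fell in labelled control cocaine (log2 fold change -1.45, standard error 0.24, adjusted p = 0.00123, limma) and C1ql3 fell by 0.72 (standard error 0.22, adjusted p = 0.0321). Of the 7 tested genes, 5 had negative and 2 positive log2 differences there, and 1.56% of all tested genes were called lower. Gal also differed between the labelled genotypes in its cocaine effect (1.86, standard error 0.37, adjusted p = 0.0397) and fell by 0.53 over both genotypes (standard error 0.19, adjusted p = 0.0461). Of all tested genes 0.468% were called higher in the first of these contrasts, and 2.07% in either direction in the second. The list's sum was 26.2 to 35.2 in control saline, 14.7 to 22.0 in labelled control cocaine, 21.8 to 28.8 in Maged1-cKO saline, and 29.4 and 30.5 in labelled Maged1-cKO cocaine. As Calb2 was, the sum was lower in every labelled control cocaine library than in every control saline library. Of all tested genes, each taken singly, 10.3% separated in this way, and no such share was computed for sums of genes. The sum overlapped between the saline groups. Within groups it did not always follow Calb2. In labelled control cocaine, replicate 1 had the highest Calb2 (111) and the lowest sum (14.7). In Maged1-cKO saline the highest Calb2 was in replicate 3 and the highest sum in replicate 4. In control saline replicate 1 had the lowest of both and replicate 2 the highest of both. The list's median was -0.21 for cocaine in control, 0.10 in Maged1-cKO and 0.60 for their difference.

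Of the 11 thalamic glutamatergic genes, 4 rose in labelled control cocaine, where Calb2 fell: Tnnt1 (log2 fold change 1.02), Prkcd (0.75), Synpo2 (0.61) and Lef1 (0.55), with adjusted p from 0.00287 to 0.0159 (limma), beside 1.54% of all tested genes. Prkcd, a protein kinase C gene of relay neurons, was the most abundant of the list at a mean of 169 TPM. In Maged1-cKO, Gbx2 rose (0.94, standard error 0.24, adjusted p = 0.0151), and over both genotypes Tnnt1 rose (0.80, adjusted p = 0.00280). None of the list was called between genotypes or for the difference in cocaine effect by limma, where 4, 1 and 4 genes had an unadjusted p under 0.05 (saline, cocaine and difference), beside 16.7%, 12.1% and 18.5% of all tested genes. The sum was 422 to 580 in control saline, 590 to 788 in labelled control cocaine, 514 to 658 in Maged1-cKO saline, and 555 and 667 in labelled Maged1-cKO cocaine.

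Markers of tissue next to the thalamus were read in the same way. All 8 habenula genes, of which the neurokinin gene Tac2 was the most abundant at a mean of 20.6 TPM, had negative log2 differences between genotypes after saline (median -1.27) and for cocaine in control (-0.39), and positive ones for cocaine in Maged1-cKO (0.80). None was called by limma, and 5, 0 and 1 had an unadjusted p under 0.05, beside 16.7%, 36.9% and 33.7% of all tested genes. Their sum was 54.6 to 81.0 in control saline, 8.83 to 179 in labelled control cocaine, 9.69 to 51.4 in Maged1-cKO saline, and 30.4 and 64.7 in labelled Maged1-cKO cocaine. All 6 calcium-binding genes but Pvalb also had lower means in Maged1-cKO than in control after saline, and the part of habenula tissue in their values was not tested.

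Of 10 hypothalamic genes, 8 were tested and 5 fell in labelled control cocaine (by adjusted p, Oxt, Avp, Trh and Otp came first), with Oxt, the most abundant at a mean of 45.8 TPM, listed at 0 in 3 of those 4 libraries. Of all tested genes 1.56% were called lower there. In the difference of cocaine effects 4 were called higher, beside 0.468% of all tested genes. Cartpt was called higher after cocaine in Maged1-cKO, beside 1.83% of all tested genes. Oxt was called lower in Maged1-cKO after saline, where 0.0445% of all tested genes were called in either direction. The sum was 139 to 510 in control saline, 7.63 to 133 in labelled control cocaine, 12.6 to 152 in Maged1-cKO saline, and 61.6 and 107 in labelled Maged1-cKO cocaine. Of the ependyma and choroid plexus list 7 of 10 were tested, with Ttr the most abundant (mean 114 TPM), and Rsph1, a gene of motile cilia, rose in Maged1-cKO with cocaine (1.26, adjusted p = 0.0359, limma). All 7 had negative log2 differences for cocaine in control (median -0.63) and between genotypes after saline (-0.82), and all 7 positive ones for cocaine in Maged1-cKO (0.77) and for the difference of effects (1.57), as Calb2 had. At an unadjusted p under 0.05 there were 3, 6, 3 and 6 of them, beside 36.9%, 16.7%, 33.7% and 18.5% of all tested genes. The sum of this list was 28.9 to 1462 in control saline, 8.07 to 38.1 in labelled control cocaine, 6.43 to 52.7 in Maged1-cKO saline, and 26.5 and 27.5 in labelled Maged1-cKO cocaine. Of the striatum, cortex and hippocampus list 8 of 11 were tested, with Slc17a7 the most abundant (51.1 TPM), none was called in any contrast by limma (at most 3 at an unadjusted p under 0.05, beside 12.1% to 42.7% of all tested genes), and its sum lay between 76.2 and 128 in all groups. The part of these tissues in the Calb2 differences was not tested.

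**Figure D5:**
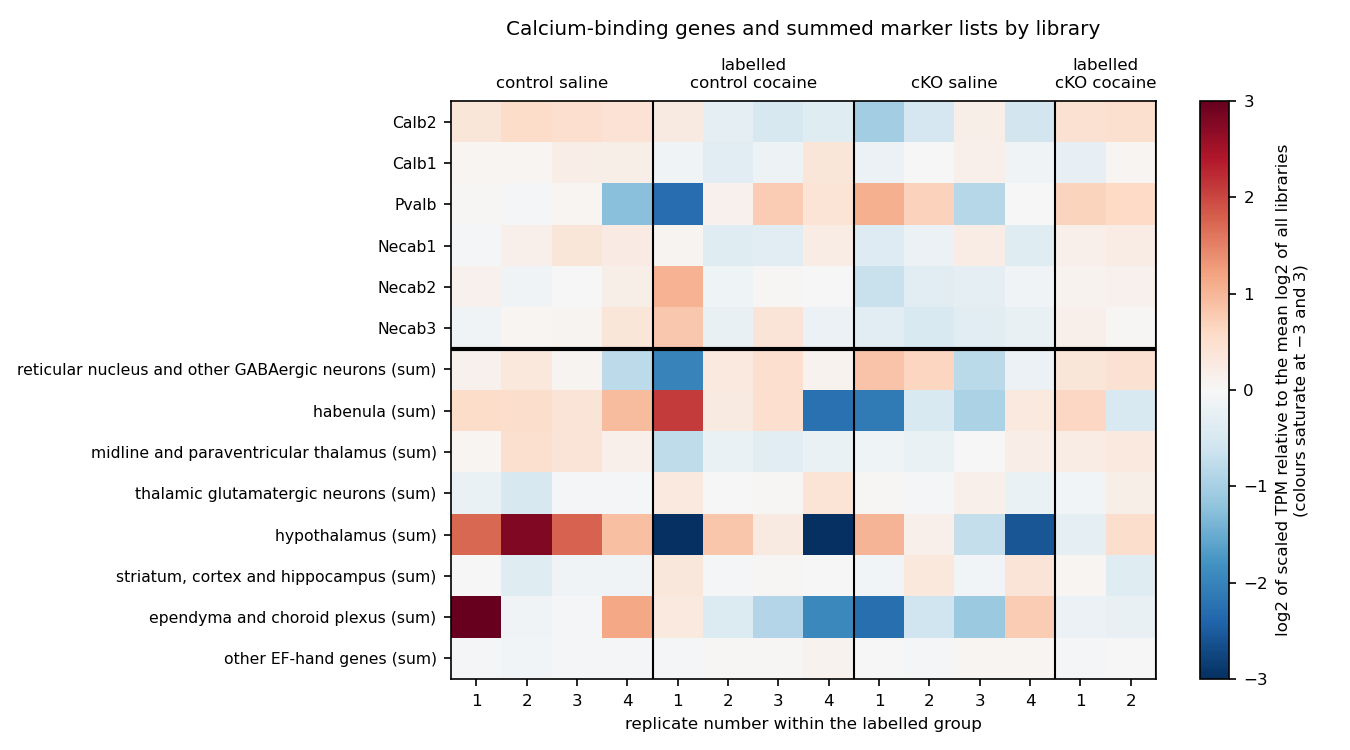
Rows are the 6 genes and the summed scaled TPM of the marker lists, columns are the 14 libraries by labelled group, and colour gives the log2 value relative to the mean over all libraries (red higher, blue lower). Pvalb and the GABAergic sum are darkest blue in the same library, labelled control cocaine replicate 1, where the habenula sum of 179 is the highest of all.

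Other EF-hand genes were measured for comparison. Of 42 such genes, among them the calmodulins, the neuronal calcium sensors, Kcnip and S100 families, 39 were tested and none was called in any contrast by limma. At an unadjusted p under 0.05 there were 16 for cocaine in control, 9 in Maged1-cKO, 13 between genotypes after saline, 5 after cocaine and 12 for the difference of effects. Of all tested genes 36.9%, 33.7%, 16.7%, 12.1% and 18.5% had such a p in these contrasts. Their median log2 difference was -0.0017 for cocaine in control, -0.04 in Maged1-cKO, 0.05 between genotypes after saline and -0.05 after cocaine. Calm3, a calmodulin gene, was the most abundant at a mean of 394 TPM, and the sum of the list lay between 2043 and 2339 in every library. The level of this wider family was nearly even over the libraries in which Calb2 varied 3.01-fold.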

How the data were processed

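RNA depleted of ribosomal RNA was sequenced from the thalamus with a stranded, paired-end protocol. According to the labels and the paper's methods, the authors mapped reads to GRCm38.p4/mm10 with STAR 2.5.3a, quantified them with salmon, summarised them per gene with tximport and deposited 1 table of TPM per library. Deposited values of 2 tables have a comma as the decimal mark and were read with a point. Their unit is recorded as other but is the authors' TPM as well. Depth is unknown from TPM.

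Of 15 samples 14 were analysed, grouped by title. The deposited TPM were divided by unweighted TMM factors (trimming 30% of log ratios and 5% of means per side), and log2 was taken after adding 0.5, which understates changes of low genes. The 13471 genes at 1 TPM or more in 3 or more libraries were fitted in limma 3.58.1 (R 4.3.3), with 1 mean for each of the 4 groups, an intensity trend and Benjamini-Hochberg adjustment. Single genes were also compared by two-sided exact permutation tests, and pairs of genes by exact permutation of libraries within groups (27648 permutations). Coordinates are from GENCODE M21. Python 3.11.15, numpy 2.4.6, pandas 2.3.3 and scipy 1.17.1 were used, and the fit was tested on simulated data.

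The members and lists were chosen with earlier results of these data known. Named genes are the 6 members, Maged1, the 2 genes most like each member in deviations, and from each list the genes called in a contrast (at most 4) and the most abundant. Alternatives changed the scaling (none, median-of-ratios, quantile), the pseudocount (0.1 or 1), the filter (none, or a mean of 5 TPM), the samples (compared groups alone, each library left out, the 10 libraries whose labels agree), the genotype (from the tag), the model (no trend, replicate block) and the fold minimum (none).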

Additional observations from a re-analysis of the deposited data

Results flagged for a closer look

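Pvalb in control saline was flagged because 1 library lay far from the others. Replicate 4 had 12.2 scaled TPM beside 28.2, 29.96 and 30.2. On the log2 scale its gap to the nearest library was 0.921 of the group's range, above Dixon's 95% critical value for 4 libraries. The same library had the lowest GABAergic sum of its group, 90.0 scaled TPM beside 166 to 194, and the lowest Gad1, 15.8 beside 35.7 to 46.5. The part of reticular tissue in this value was not tested.

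Necab2 in the libraries labelled control cocaine was flagged in the same way. Replicate 1 had 95.1 scaled TPM beside 42.1, 46.4 and 47.5, a gap of 0.853 of the range on the log2 scale. The habenula sum there was 179 beside 8.83 to 59.1, and the part of that tissue in the value was not tested. Together 18 groups of 4 were examined and 2 passed the ratio, where chance alone passes about 1 group of 20.

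The cocaine effect on Calb2 differed between the labelled genotypes by 1.62 on the log2 scale (adjusted p = 0.0398, limma, interaction term). All 4 libraries labelled control cocaine lay below the control saline libraries and both labelled Maged1-cKO cocaine lay above the Maged1-cKO saline libraries. Maged1 goes against the labels in these cocaine libraries, and its own interaction was 2.26. Between saline and cocaine groups of like Maged1, mean Calb2 was 127 and 128 scaled TPM (high Maged1) and 69.3 and 81.0 (low Maged1).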

How the results depend on the processing

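Calb2 was called for cocaine in control in 9 of 13 alternatives, in Maged1-cKO in 8 of 13 and for their difference in 6 of 12, and its direction held in all of them for these contrasts. The number of the 6 genes called was 1 in each of these contrasts. With unscaled TPM it was 3 in control (Calb1 at -0.54 and Necab1 at -0.64 joined Calb2) and 0 elsewhere, with Calb2 at 0.56 in Maged1-cKO and 1.62 for the difference. Without the filter it was 0 in control (Calb2 -0.68, adjusted p = 0.0506, limma) and 0 for the difference (1.62, adjusted p = 0.0518), without the intensity trend 0 for the difference (1.62, adjusted p = 0.0513), and with the compared groups alone 0 in Maged1-cKO (0.94, adjusted p = 0.0718). With genotypes from the tags it was 0 in each (Calb2 -0.064, 0.33 and 0.39), and in libraries whose labels agree 0 in each (-0.67, 0.66 and 1.33). Replicate numbers did not pair the libraries (mean r -0.014 over 18 pairs with the same number). With the replicate block the count was 0 in each, Calb2 being -0.68, 0.97 and 1.65 (adjusted p = 0.0602, 0.0529 and 0.111).

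With a library left out, the count was 0 to 1 in these contrasts and between genotypes after saline. Calb2 ranged from -0.84 to -0.59 in control, from 0.76 to 1.16 in Maged1-cKO, and from 1.43 to 1.84 for their difference.

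Uncalled values changed sign in some alternatives, and the cause was not tested. With unscaled TPM these were Pvalb -0.31, Necab2 -0.19 and Necab3 -0.26 for cocaine in control, and Necab1 -0.022 in Maged1-cKO. Over both genotypes they were Calb2 -0.25, Pvalb -0.14, Necab1 -0.33, Necab2 -0.054 and Necab3 -0.11. With quantile scaling these were Pvalb -0.019 in control and Necab1 -0.0069 over both. With the replicate block Calb1 became 0.022 for cocaine in Maged1-cKO and 0.042 between genotypes after cocaine. With the tags, the saline genotype difference was Calb1 0.11, Calb2 0.29, Pvalb -0.93, Necab1 0.24, Necab2 0.19 and Necab3 0.18, cocaine in control gave Pvalb -0.66 and Necab1 0.026, and the difference of effects Calb1 -0.16, Necab2 -0.31 and Necab3 -0.29. In libraries whose labels agree, Pvalb was -0.23 for cocaine in control and -0.41 between genotypes after saline, Calb1 was -0.012 for the difference and Calb2 -0.0062 over both genotypes. With a library left out, values crossing 0 ranged for cocaine in control from -0.27 to 0.72 (Pvalb), -0.076 to 0.31 (Necab2) and -0.089 to 0.24 (Necab3). For cocaine in Maged1-cKO Calb1 ranged from -0.23 to 0.093. Between genotypes after cocaine the ranges were -0.21 to 0.11 (Calb1), -0.24 to 0.14 (Necab2) and -0.24 to 0.091 (Necab3). For the difference they were -0.060 to 0.26 (Calb1) and -0.31 to 0.67 (Pvalb), and over both genotypes -0.0068 to 0.11 (Necab1).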
